A study of Rattus norvegicus with 33 samples.

Results

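The 10 rat genes of glutathione metabolism and antioxidant defence described here were followed across the 10 groups of a prostate microarray series: the glutathione transferases Gstp1 and Mgst1, the glutathione synthesis genes Gclc and Gclm, the reductases Nqo1 and Txnrd1, haem oxygenase Hmox1, and the enzymes Sod2, Gpx3 and Cat that remove superoxide and peroxides. They are 10 named genes, matched to probes by symbol, and were chosen with earlier results of these data known. Of the 10, 9 were among the 23157 genes tested. Gclm gave a signal well above background on only 2 of 33 arrays and was left out of the tests. In brief, Hmox1 was 8.57-fold higher and Cat 4.35-fold lower in prostates exposed to estrogen after birth and to testosterone and estradiol as adults, at postnatal day (PND) 145, than in controls. Gclc, Mgst1 and Gpx3 were also called higher there, where the calls of Gclc and Mgst1 were lost in 3 and 8 of 15 alternative settings. Mgst1 was the only one of the 9 called after the neonatal estrogen alone, at PND 145, and that call was lost in 11 of 16.

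Total RNA of 33 male Sprague-Dawley rats was hybridised to single-colour Agilent arrays, 1 array per sample, with 3 to 4 litters per group per the labels. Estradiol benzoate (EB), an esterified estradiol, was injected under the skin of pups at 2.5 mg/kg on PND 1, 3 and 5, and control pups received vehicle. From PND 90 the T+E groups carried silastic implants with testosterone and estradiol, and the control and EB groups carried empty ones. The groups were control and EB at PND 30, with 4 arrays each, at PND 100 all 4 treatments (control, EB, T+E, and both agents as EB+T+E) with 3 arrays each, and at PND 145 the same 4, with 3 each except for 4 in EB. The source label of each sample is the entire gland, whereas the series is titled after the dorsolateral lobes, and the labels leave the lobes sampled undetermined.

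Glutathione is a small thiol peptide made in a first, rate-limiting step by glutamate-cysteine ligase, whose catalytic subunit is Gclc and whose modifier subunit is Gclm. Glutathione transferases use it to conjugate electrophiles and glutathione peroxidases use it to reduce peroxides. Many genes of this group, Nqo1, Hmox1, Gclc, Gclm, Txnrd1 and Gstp1 among them, are textbook targets of the transcription factor NRF2 (gene Nfe2l2), which binds the antioxidant response element and is held in check by KEAP1, while BACH1 represses Hmox1. In the prostate, loss of GSTP1 through promoter methylation is a well known mark of human carcinoma, and estrogen with testosterone is a classic inducer of inflammation and dysplasia in the rat gland.

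The sequences read by the arrays are shown for the 6 members on which the results below turn and whose probe lies in the coding part of the transcript, since each value rests on 1 such 60-base stretch. They are given 5' to 3' on the transcript strand, as the array design lists them, with the position of the first base in the RefSeq transcript and the genomic placement on build rn4 in the sentences that follow.
Hmox1: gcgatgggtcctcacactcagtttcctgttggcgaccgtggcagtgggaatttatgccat
Cat: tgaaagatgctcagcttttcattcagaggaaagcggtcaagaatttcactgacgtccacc
Mgst1: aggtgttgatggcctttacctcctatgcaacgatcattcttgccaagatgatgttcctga
Gstp1: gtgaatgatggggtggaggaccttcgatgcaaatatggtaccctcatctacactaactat
Gpx3: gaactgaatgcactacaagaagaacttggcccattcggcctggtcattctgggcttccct
Nqo1: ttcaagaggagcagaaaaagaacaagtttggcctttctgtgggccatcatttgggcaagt
The Hmox1 probe starts at transcript base 922 and lies at chr19:13969336-13969395 on the plus strand, at the end of the coding sequence, which encodes the membrane anchor. The Cat probe starts at base 1531 and is placed at chr3:88683063-88685007, a span of 1945 bases that is longer than the probe, so it joins exons. The Mgst1 probe starts at base 102 and lies at chr4:175254945-175255004. The brighter of 2 Gstp1 probes starts at base 346 and lies at chr1:206628636-206628695 on the minus strand. The Gpx3 probe starts at base 391 and spans 1468 bases at chr10:40316128-40317595. The Nqo1 probe starts at base 816 and lies at chr19:37251727-37251786 on the minus strand. The probes of Gclc, Gclm, Sod2 and Txnrd1 lie nearer the transcript ends and are named only.

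The core of the antioxidant response element, TGACNNNGC, was searched on both strands in the 250 bases before and 50 after each RefSeq start on assembly GRCr8, because 6 of the 10 genes are textbook NRF2 targets. Of the 9 members with an entry, 4 held the motif in at least 1 promoter, beside 12.06% of all 33469 promoters. The windows of 59 bases around the matches follow, 5' to 3' on the strand of the gene, with the match in capitals. In Gclm, Txnrd1 and Sod2 the match is on the opposite strand.
Gstp1: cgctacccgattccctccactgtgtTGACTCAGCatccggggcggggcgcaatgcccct
Gclm: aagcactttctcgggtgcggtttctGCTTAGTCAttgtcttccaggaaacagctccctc
Txnrd1: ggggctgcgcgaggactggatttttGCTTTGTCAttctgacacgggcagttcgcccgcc
Sod2: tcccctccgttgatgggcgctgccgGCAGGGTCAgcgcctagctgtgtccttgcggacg
The Gstp1 match begins at position -61 from the start, at chr1:210769733-210769791 for the window, and its letters also hold TGACTCA, the AP-1 site. The Gclm match begins at position -172 (window chr2:213031938-213031996), the Txnrd1 match at -78 from 1 of 2 listed starts (chr7:22755949-22756007), and the Sod2 match at -35 (chr1:50050170-50050228). No match was found in the windows of Mgst1, Gclc, Nqo1, Gpx3 and Cat, which says only that these letters are not there. A match is a description and not a binding site.

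Levels are log2 of the processed signal over the 75th percentile of its array, so 0 is the brightness of that percentile and a step of 1 is a 2-fold change. Group levels are means ± SD over the 3 or 4 arrays of a group. Ratios between groups are log2 differences ± SE from 1 limma fit over all arrays, and a gene is called at a Benjamini-Hochberg adjusted p below 0.05 over all 23157 genes. Levels of different genes rest on different probes and are not compared with each other. The groups compared at 1 age share their control or EB+T+E arrays, so the ratios of a gene in several comparisons are not independent. Arrays of the 2 groups compared did not overlap for 9% to 52.5% of all genes, depending on the comparison. In a bulk tissue, fewer cells of a type and less RNA per cell cannot be told apart.

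**Figure D1:**
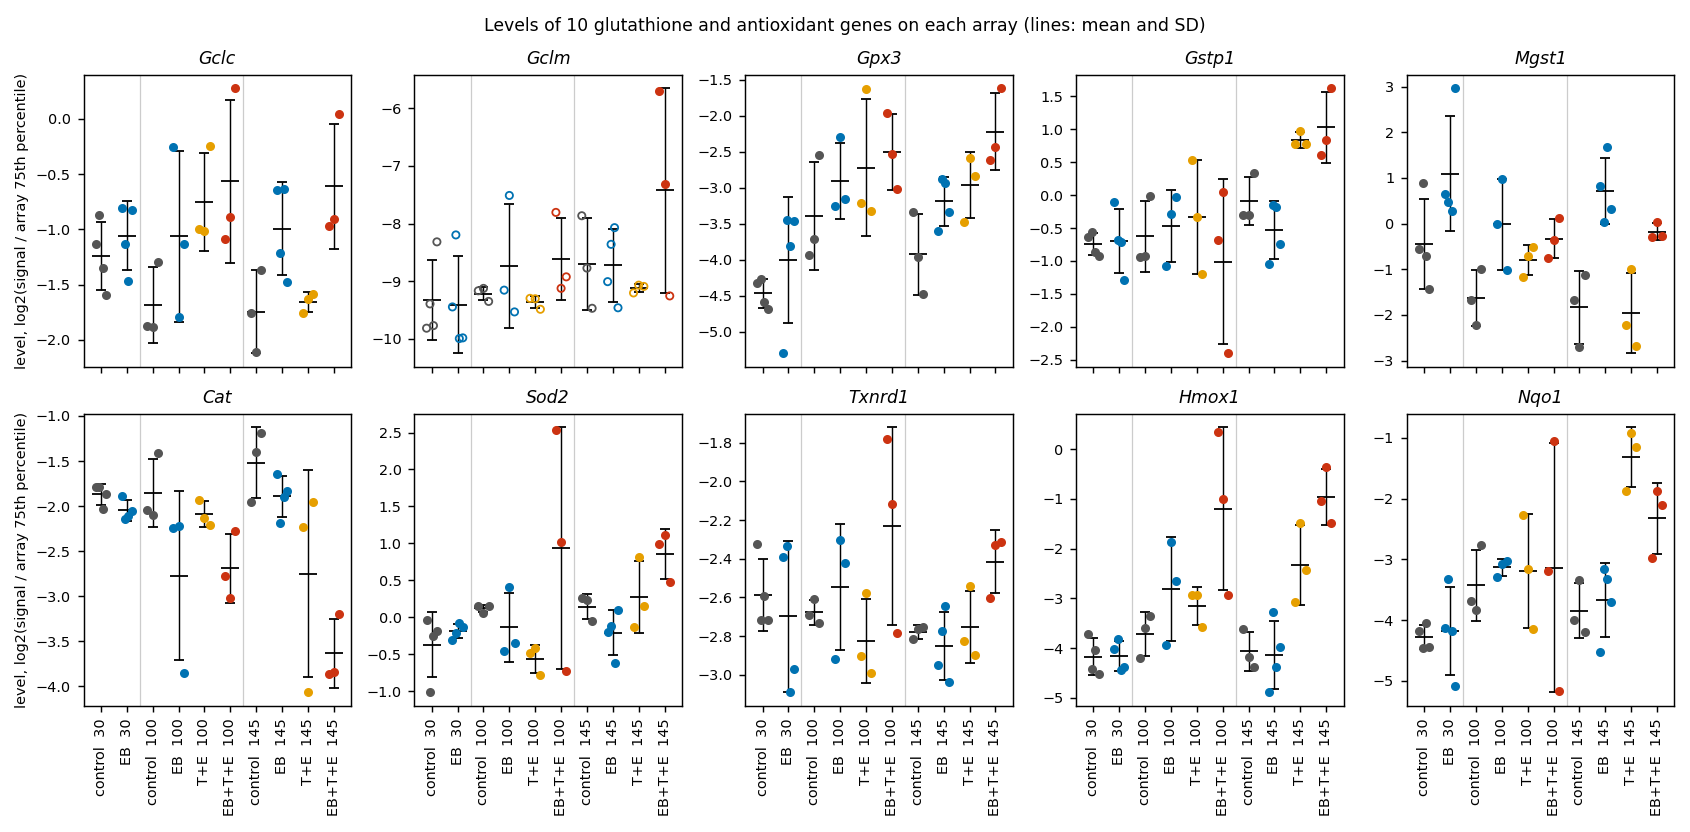
Level of each of the 10 genes on each of 33 arrays (y axis, log2 of signal over the array's 75th percentile) by group and age in days (x axis); points are arrays, open where the signal was not well above background, and lines are means with SD. Hmox1 is highest and Cat lowest in EB+T+E at PND 145, with means of -0.96 and -3.64, and Gclm is above background on only 2 arrays.

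On each array of 58717 spots, between 61.5% and 68.9% gave a signal well above background and none was saturated. All 8 luminal prostate markers (such as Krt8, Krt18 and Cdh1) were well above background on every array. Their mean level was 2.33 to 2.37 in controls at PND 145, 0.83 to 2.17 in EB+T+E at PND 145 and -0.71 to 2.04 in EB+T+E at PND 100. Macrophage markers had a mean level of -2.94 to -2.21 in controls at PND 145, 0.35 to 1.27 in EB+T+E at PND 145 and 0.15 to 1.38 in EB+T+E at PND 100, and 8 of 9 were called higher than in controls at both ages. All 5 neutrophil markers were called higher at both ages, and 2 of them were not well above background on any control array at PND 145. In EB+T+E against control at PND 145, 8 of 8 T cell, 7 of 7 B and plasma cell, 7 of 7 fibroblast and 4 of 6 endothelial markers were called higher as well, with median ratios of 4.92, 8.42, 2.23 and 1.75, beside all 5 calls of members in that comparison, and the part of these cells in the calls was not tested. Secretory products of the ventral lobe varied between arrays of 1 group, from -0.15 to 5.35 in EB+T+E at PND 145. EB+T+E replicate 1 of PND 100 stood apart with the lowest luminal level (-0.71) and a skeletal muscle list at 4.63. Replicate 3 of that group had the lowest neutrophil level of the 3 and a skeletal muscle list at -5.54. Spermatid markers were at -3.21, 2.66 and -4.90 on the 3 controls of PND 145, where all 7 were well above background on every array, and all 7 were called lower in EB+T+E. Seminal vesicle products were at 3.69 on control replicate 2 of PND 145 and at 3.60 on control replicate 3 of PND 100, which also had adipocyte markers at -0.93. Calls of members and pathway genes that were lost without one of these 4 arrays (EB+T+E replicates 1 and 3, the 2 named controls) are marked where they are described. The marker calls above were not refitted without these arrays.

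The haem-degrading enzyme had the largest ratios of the 9 members in EB+T+E against control at both ages. Hmox1 encodes haem oxygenase 1, which splits haem into biliverdin, iron and carbon monoxide and is strongly inducible in macrophages and by oxidants. At PND 145 its levels in controls were -3.62, -4.18 and -4.37, with EB -4.89, -3.28, -4.39 and -3.98, with T+E -3.08, -1.49 and -2.43 and with EB+T+E -1.03, -0.36 and -1.49. Every EB+T+E array lay above every control and EB array, while the lowest EB+T+E value overlapped the highest T+E value. The ratio of EB+T+E to control was 3.10 ± 0.58 (8.57-fold, adjusted p = 0.000249, limma) and to EB alone 3.17 ± 0.54 (9.02-fold, adjusted p = 0.000202). Both calls were kept under all the alternatives run, with ratios of 2.66 to 3.36 and 2.61 to 3.46. Against T+E alone the ratio was 1.37 ± 0.58 and was not called (adjusted p = 0.0899), though it was with slide as a block (1.57, adjusted p = 0.0418) and without T+E replicate 2 (1.80, adjusted p = 0.0421). T+E against control gave 1.72 ± 0.58 (adjusted p = 0.243), not called. Its arrays did not overlap with the controls, which held for 21.8% of all genes.

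At PND 100 the levels of Hmox1 were -4.20, -3.59 and -3.36 in controls, -3.94, -1.86 and -2.65 with EB, -2.93, -2.94 and -3.58 with T+E and 0.34, -0.99 and -2.93 with EB+T+E. EB+T+E replicate 3 lay within the range of the EB arrays and only just above the highest T+E array, and the other 2 lay above all EB and T+E arrays. EB+T+E exceeded control by 2.52 ± 0.58 (5.74-fold, adjusted p = 0.00632). Without EB+T+E replicate 1 the ratio was 1.76 (adjusted p = 0.0828), and without replicate 3 it was 3.39 (adjusted p = 0.000364). In a fit of only the groups compared it was not called (adjusted p = 0.235). Against T+E alone the ratio was 1.96 ± 0.58 (adjusted p = 0.0524) and against EB alone 1.62 ± 0.58 (adjusted p = 0.147). Neither was called, and both were without EB+T+E replicate 3, at 2.82 (adjusted p = 0.00162) and 2.49 (adjusted p = 0.00897). With slide as a block the ratio to T+E was 2.20 and called (adjusted p = 0.019). At PND 30 Hmox1 stood at -4.17 ± 0.37 in controls and -4.16 ± 0.30 with EB, a ratio of 0.01 ± 0.50.

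Ordered by mean, Hmox1 ran from -4.17 in the PND 30 controls through -4.16 in EB at PND 30, -4.13 in EB at PND 145, -4.06 and -3.72 in the adult controls, -3.15 in T+E and -2.82 in EB at PND 100, -2.33 in T+E at PND 145, to -1.20 and -0.96 in EB+T+E. Every pair of neighbours in that order overlapped. The 3 genes with the most similar profile of group means over the 10 groups were Fcna, Lrg1 and Angptl4, with root mean square differences of 0.28, 0.29 and 0.34 beside 1.16 for the spread of Hmox1 itself.

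Macrophage and neutrophil markers varied along with Hmox1 on some arrays and not on others. In EB+T+E at PND 100, replicate 1 had Hmox1 at 0.34, macrophage markers at 1.38 and neutrophil markers at -0.52. Replicate 2 had them at -0.99, 0.17 and -1.99, and replicate 3 at -2.93, 0.15 and -4.40, so these 2 differed in Hmox1 and neutrophil markers at like macrophage levels. T+E replicate 2 of PND 145, the highest T+E array for Hmox1 (-1.49), had macrophage markers at -0.91 and neutrophil markers at -3.60, above the other 2 T+E arrays of that age, at -1.84 for macrophages and -6.94 and below for neutrophils. EB replicates 2 and 3 of PND 100, with Hmox1 at -1.86 and -2.65, had macrophage markers at 0.08 and 0.10, and replicate 1, with Hmox1 at -3.94, had them at -1.41. In EB at PND 145, replicate 3 had the highest macrophage level of its group (-1.52) with Hmox1 at -4.39, and replicate 2 had -1.79 with Hmox1 at -3.28. The part of these cells in the Hmox1 result was not tested.

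**Figure D2:**
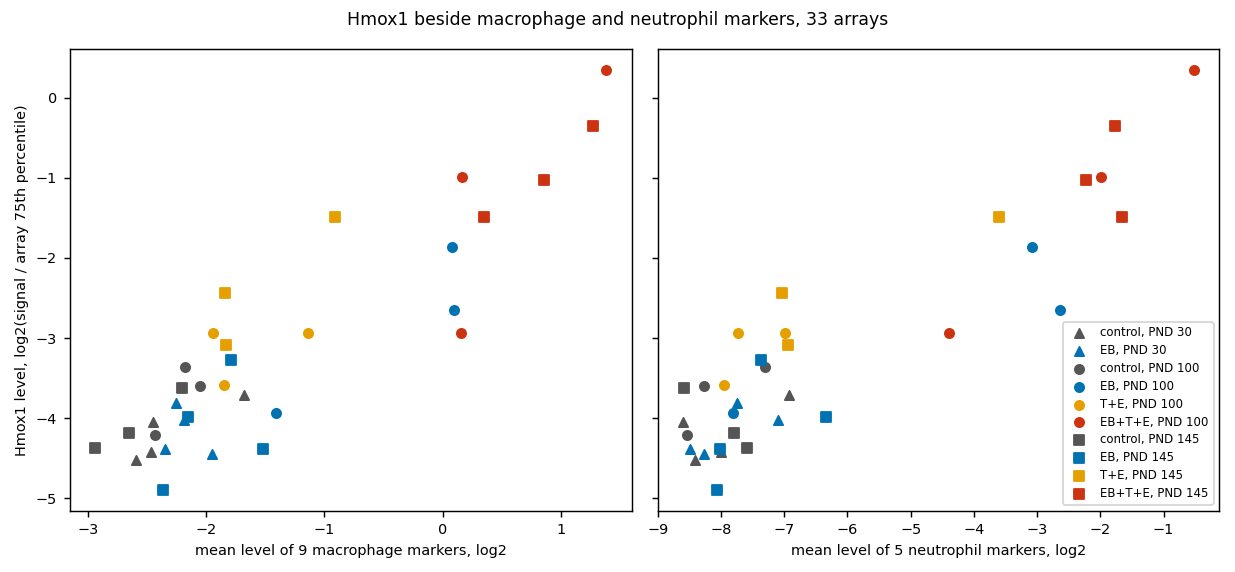
Level of Hmox1 (y axis, log2 of signal over the array's 75th percentile) against the mean level of 9 macrophage markers (left) and 5 neutrophil markers (right) on 33 arrays; colour gives the treatment and shape the age. The EB+T+E arrays sit at macrophage levels of 0.15 and above, with Hmox1 from -2.93 to 0.34.

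Catalase moved the other way. Cat, the peroxisomal enzyme that breaks hydrogen peroxide into water and oxygen, read -1.96, -1.40 and -1.19 in controls at PND 145, -1.65, -2.19, -1.90 and -1.84 with EB, -2.24, -4.07 and -1.95 with T+E and -3.87, -3.84 and -3.19 with EB+T+E. The EB+T+E arrays lay below all control and EB arrays, and T+E replicate 2 lay below them. Cat fell in EB+T+E against control, with a ratio of -2.12 ± 0.40 (4.35-fold lower, adjusted p = 0.000295), and against EB alone, with -1.74 ± 0.38 (3.35-fold lower, adjusted p = 0.00168). Both calls were kept under every alternative run, with ratios of -2.34 to -1.96 and -1.97 to -1.63. Against T+E alone the ratio was -0.88 ± 0.40 (adjusted p = 0.118), not called, and -1.54 (adjusted p = 0.00301) without T+E replicate 2. On the 3 EB+T+E arrays luminal markers stood at 0.83, 1.41 and 2.17, where controls stood at 2.33 to 2.37. The T+E arrays, with Cat at -4.07 on replicate 2, all had luminal markers at 2.03 or above. EB+T+E replicate 1 of PND 100, with the lowest luminal level (-0.71), had Cat at -2.78. The part of the epithelium in the result was not tested.

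The other groups of Cat differed less. Levels were -1.87 ± 0.12 in controls and -2.05 ± 0.12 with EB at PND 30. At PND 100 they were -1.85 ± 0.38 in controls, -2.77 ± 0.94 with EB, -2.09 ± 0.14 with T+E and -2.69 ± 0.38 with EB+T+E. The low mean with EB came from replicate 3 at -3.85, the EB array with the lowest luminal level of that age (1.25), beside -2.25 and -2.22 in the other 2. The ratios of EB and of EB+T+E to control at PND 100 were -0.92 ± 0.40 (adjusted p = 0.177) and -0.84 ± 0.40 (adjusted p = 0.173), neither called. In each the arrays did not overlap with controls, which held for 26.8% and 26.2% of all genes. In order of mean, EB+T+E at PND 145 was lowest (-3.64), EB and EB+T+E of PND 100 and T+E of PND 145 followed between -2.77 and -2.69, and the other 6 groups lay between -2.09 and -1.52. The step between these last sets, from EB+T+E to T+E at PND 100, was the only one in the order without overlapping arrays.

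Gpx3 is the secreted plasma glutathione peroxidase. Its levels at PND 145 were -3.34, -3.97 and -4.47 in controls and -2.61, -2.44 and -1.61 with EB+T+E, with no overlap. The ratio was 1.71 ± 0.48 (3.27-fold, adjusted p = 0.0082), a call kept under every alternative run (1.31 to 2.00, adjusted p up to 0.046). EB and T+E at that age lay between, at -3.19 ± 0.34 and -2.96 ± 0.46. None of their ratios to control, and none of the ratios of EB+T+E to either, was called. At PND 100 the means were -3.40 ± 0.75 in controls, -2.91 ± 0.53 with EB, -2.72 ± 0.95 with T+E and -2.50 ± 0.53 with EB+T+E, and the ratio of EB+T+E to control was 0.90 ± 0.48 (adjusted p = 0.226). At PND 30 Gpx3 was at -4.47 ± 0.20 in controls and -4.01 ± 0.88 with EB. The PND 100 controls exceeded the PND 30 controls by 1.07 ± 0.45 without overlap, which was not called (adjusted p = 0.262). In that comparison 26.7% of all genes did not overlap. Every pair of neighbours in the order of the 10 group means overlapped.

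Sod2 is the mitochondrial superoxide dismutase, an enzyme strongly inducible by inflammatory cytokines. At PND 100 its levels were 0.15, 0.06 and 0.15 in controls, -0.46, 0.40 and -0.35 with EB, -0.49, -0.42 and -0.78 with T+E and 2.54, 1.02 and -0.73 with EB+T+E. EB+T+E replicate 1 was the highest of all 33 arrays and replicate 3 was below every control of PND 100. No ratio of Sod2 was called. The nearest was EB+T+E over T+E, at 1.50 ± 0.45 (adjusted p = 0.053), and it was called at 2.34 without EB+T+E replicate 3 (adjusted p = 0.000529) and at 1.64 with slide as a block (adjusted p = 0.0279). Without that replicate the ratios to control and to EB were also called, at 1.66 (adjusted p = 0.00217) and 1.91 (adjusted p = 0.00359), against 0.82 ± 0.45 (adjusted p = 0.232) and 1.08 ± 0.45 (adjusted p = 0.227) with it. Replicate 1, at 2.54, was also the array with the highest macrophage and neutrophil markers.

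At PND 145 Sod2 stood at 0.14 ± 0.17 in controls, -0.21 ± 0.30 with EB, 0.28 ± 0.49 with T+E and 0.86 ± 0.34 with EB+T+E. The ratio of EB+T+E to EB was 1.07 ± 0.42 (adjusted p = 0.0643) with no overlap of arrays, and to control 0.71 ± 0.45 (adjusted p = 0.217). The first was called under quantile scaling (1.26, adjusted p = 0.0397), and both in fits of only the groups compared (adjusted p = 0.0261 and 0.0455). At PND 30 Sod2 was at -0.37 ± 0.44 in controls and -0.19 ± 0.10 with EB. From -0.56 in T+E at PND 100 to 0.94 in EB+T+E at PND 100, every pair of neighbours in the order overlapped.

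Of the transferases, Mgst1, the membrane-bound microsomal enzyme that also reduces lipid peroxides, was the member called after neonatal estrogen. At PND 145 its levels were -1.67, -2.71 and -1.12 in controls and 0.82, 0.03, 1.68 and 0.31 with EB, and every EB array lay above every control. The ratio was 2.55 ± 0.59 (5.84-fold, adjusted p = 0.0422). That call is marginal: it was lost in 11 of 16 alternatives, with ratios of 2.11 to 2.90 and adjusted p up to 0.316, the highest without control replicate 2 (2.11). It was also lost without control replicate 1 (adjusted p = 0.0884) and without EB replicate 1 (0.0701), 2 (0.0535), 3 (0.173) or 4 (0.0701). Within each of 2 slides that held both groups, the difference was 2.75 and 2.80. Ventral lobe products were at 3.46 to 5.95 (mean 4.738) on the control arrays and 4.70 to 6.05 (mean 5.464) on the EB arrays. The part of lobe composition in this call was not tested.

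The same gene read -0.55, 0.90, -0.72 and -1.43 in controls and 0.64, 0.48, 0.29 and 2.97 with EB at PND 30, where EB replicate 4 was the highest of all arrays and control replicate 2 was above all of the other EB arrays. The ratio was 1.54 ± 0.55 (adjusted p = 0.259), not called. At PND 100 it read -1.68, -2.21 and -0.99 in controls and -0.01, 0.97 and -1.01 with EB, overlapping by EB replicate 3, with a ratio of 1.61 ± 0.63 (adjusted p = 0.133), also not called. Control replicate 2 of PND 30 carried ventral lobe products at 5.99, above 1.43 to 3.21 on the other 3 controls and 4.55 to 5.11 on the EB arrays, and the part of lobe composition in these levels was not tested. The difference of the EB effect between ages was 0.93 ± 0.87 from PND 100 to 145 (adjusted p = 0.999) and 0.07 ± 0.84 from PND 30 to 100 (adjusted p = 0.989).

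Mgst1 was also higher in EB+T+E than in controls at PND 145, where its levels were -0.29, 0.04 and -0.27, a ratio of 1.66 ± 0.63 (adjusted p = 0.0421), and than in T+E alone, whose levels were -2.22, -0.99 and -2.68, a ratio of 1.79 ± 0.63 (adjusted p = 0.044). Neither pair of groups overlapped. Each call was lost in 8 of 15 alternatives, the first with an adjusted p of up to 0.195 (without control replicate 2, 1.22) and the second of up to 0.207 (without T+E replicate 3, 1.43). The first was also lost without control replicate 1 (adjusted p = 0.0699) and EB+T+E replicates 1 (0.085), 2 (0.112) and 3 (0.0641), and the second without EB+T+E replicates 1 (0.0959), 2 (0.126) and 3 (0.0632) and T+E replicate 1 (0.125). Against EB alone the ratio was -0.88 ± 0.59 (adjusted p = 0.284). T+E alone did not move Mgst1 past the threshold, with -0.13 ± 0.63 at PND 145 and 0.83 ± 0.63 at PND 100. The means at PND 100 were -0.80 ± 0.34 with T+E and -0.33 ± 0.43 with EB+T+E. Over the 10 groups the means ran from -1.96 in T+E at PND 145 to 1.09 in EB at PND 30, the 3 EB-only groups held the 3 highest places, and every pair of neighbours overlapped.

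Gstp1, the cytosolic pi-class transferase, was called in 1 comparison, EB+T+E over EB at PND 145. Its levels with EB+T+E were 0.61, 0.84 and 1.63 and with EB alone -1.05, -0.15, -0.19 and -0.74, with no overlap. Gstp1 rose in that comparison, by 1.56 ± 0.43 (2.95-fold, adjusted p = 0.0107). The call was kept in 15 of 16 alternatives and lost without EB+T+E replicate 3 (1.26, adjusted p = 0.0557). T+E alone read 0.77, 0.97 and 0.77 and controls -0.30, -0.31 and 0.33, also without overlap. The ratios to control were 0.93 ± 0.46 for T+E (adjusted p = 0.517) and 1.12 ± 0.46 for EB+T+E (adjusted p = 0.06), neither called. The second was called under quantile scaling (1.38, adjusted p = 0.0309), with slide as a block (1.23, adjusted p = 0.0492), with the mean of both probes (1.19, adjusted p = 0.0363) and in a fit of only the groups compared (adjusted p = 0.0376). The other Gstp1 probe, which overlaps the first on the transcript, gave 1.73 ± 0.40 against EB and 1.26 ± 0.42 against control.

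At PND 100 no ratio of Gstp1 was called. It stood at -0.63 ± 0.54 in controls, -0.47 ± 0.55 with EB, -0.33 ± 0.86 with T+E and -1.01 ± 1.26 with EB+T+E, where replicate 3 was the lowest of all arrays at -2.40. The ratio of EB+T+E to control was -0.38 ± 0.46 (adjusted p = 0.625), and its difference from the ratio at PND 145 was 1.50 ± 0.65 (adjusted p = 0.364), which did not pass. At PND 30 levels were -0.75 ± 0.17 in controls and -0.70 ± 0.48 with EB. In order of mean, T+E (0.84) and EB+T+E (1.03) of PND 145 stood above the other 8 groups, and the step below them, to the controls of PND 145, was the only one without overlap.

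Glutathione synthesis was represented by Gclc, whose product sets the rate of glutathione production. Its levels at PND 145 were -1.76, -2.11 and -1.36 in controls, -1.76, -1.63 and -1.59 with T+E, -0.65, -1.21, -0.64 and -1.48 with EB and -0.97, -0.90 and 0.04 with EB+T+E. The EB+T+E arrays lay above all control and T+E arrays and overlapped with EB. Gclc rose in EB+T+E by 1.14 ± 0.37 against control (adjusted p = 0.0193) and by 1.05 ± 0.37 against T+E (adjusted p = 0.0431), or 2.2-fold and 2.07-fold. The first was lost under normexp correction (adjusted p = 0.0593), without control replicate 2 (0.95, adjusted p = 0.09) and without EB+T+E replicate 3 (0.81, adjusted p = 0.109). The second was lost in 9 of 15 alternatives, with ratios of 0.72 to 1.23. These were the leaving out of any 1 of the EB+T+E arrays, replicates 1 (1.23), 2 (1.20) and 3 (0.72), or T+E arrays, replicates 1 (1.00), 2 (1.06) and 3 (1.09), normexp correction, no filter and a fit of only the groups compared.

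Gclc was also called at PND 100, where controls read -1.88, -1.88 and -1.29 and EB+T+E -1.08, -0.89 and 0.28, without overlap. The ratio was 1.12 ± 0.37 (2.17-fold, adjusted p = 0.0456). It was lost in 9 of 15 alternatives (0.70 to 1.38, adjusted p up to 0.289). Among them were the leaving out of control replicate 1 (1.02), 2 (1.02) or 3 (1.32) and of EB+T+E replicate 1 (1.38) or 3 (0.70). T+E alone read -0.999, -1.01 and -0.24 at that age, a ratio to control of 0.93 ± 0.37 (adjusted p = 0.408). It was the largest of any member in that comparison and was not called. The arrays did not overlap, which held for 21.4% of all genes. EB stood at -1.06 ± 0.77. At PND 30 the levels were -1.24 ± 0.31 in controls and -1.06 ± 0.31 with EB. The order ran from -1.75 in controls at PND 145 to -0.56 in EB+T+E at PND 100, and every pair of neighbours overlapped.

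Gclm, the partner subunit, was well above background on EB+T+E replicates 1 and 2 of PND 145, at -5.70 and -7.32, and on none of the other 31 arrays. The third array of that group read -9.26. All other arrays read -9.99 to -7.51, values that have no order because they are not well above background. The mean of the group, -7.43, did not exceed the lowest measurable signal on the control arrays (-7.16 on average), so no fold is given. By group, the unmeasured means were -9.32 and -9.40 at PND 30 (control, EB), -9.21, -8.73, -9.36 and -8.62 at PND 100 (control, EB, T+E, EB+T+E), and -8.70, -8.72 and -9.12 at PND 145 (control, EB, T+E).

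Nqo1 encodes NAD(P)H quinone dehydrogenase 1, which reduces quinones by transfer of 2 electrons. At PND 145 it read -3.99, -3.34 and -4.20 in controls, -4.52, -3.16, -3.32 and -3.70 with EB, -1.87, -0.92 and -1.15 with T+E and -2.98, -1.88 and -2.11 with EB+T+E. Each T+E array lay above each EB+T+E array, though the nearest arrays nearly touched (-1.8717 and -1.88). Both groups lay above all control and EB arrays. T+E against control gave the largest ratio of any member in that comparison, 2.53 ± 0.64 (5.78-fold), but its adjusted p was 0.068 and it was not called. The ratio of EB+T+E to control was 1.52 ± 0.64 (adjusted p = 0.063) and to T+E -1.01 ± 0.64 (adjusted p = 0.269). The first of these was called in a fit of only the groups compared (adjusted p = 0.0249). Ventral lobe products were at 1.75 to 2.78 on the T+E arrays and 3.46 to 5.95 on the control arrays, and the part of lobe composition in these levels was not tested.

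At PND 100 Nqo1 varied within groups. It read -2.28, -3.16 and -4.15 with T+E and -3.18, -1.05 and -5.16 with EB+T+E, so the EB+T+E group alone spanned nearly the whole range of the gene. Controls stood at -3.43 ± 0.58 and EB at -3.13 ± 0.14. No ratio was called, and without EB+T+E replicate 3 the ratio of EB+T+E to control was 1.31 ± 0.56 (adjusted p = 0.0894) in place of 0.29 ± 0.64. The T+E effect differed between PND 145 and PND 100 by 2.30 ± 0.90 (adjusted p = 0.826). At PND 30 the levels were -4.28 ± 0.20 in controls and -4.18 ± 0.72 with EB. The 2 highest groups in the order of means were EB+T+E (-2.32) and T+E (-1.31) of PND 145. They did not overlap with each other (nearest arrays -1.88 and -1.8717) or with the group below (-2.983 and -3.0332). The other neighbours overlapped.

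Txnrd1, the cytosolic thioredoxin reductase, had the narrowest range of the 9 tested members, from -3.09 to -1.78 over 33 arrays. At PND 145 it stood at -2.78 ± 0.03 in controls, -2.85 ± 0.18 with EB, -2.75 ± 0.19 with T+E and -2.42 ± 0.16 with EB+T+E. At PND 100 the levels were -2.68 ± 0.06, -2.55 ± 0.33, -2.82 ± 0.22 and -2.23 ± 0.51 in the same order of groups, and at PND 30 -2.59 ± 0.19 in controls and -2.70 ± 0.39 with EB. No ratio was called. At PND 100 the ratio of EB+T+E to T+E was 0.59 ± 0.24 (adjusted p = 0.148), and 0.87 (adjusted p = 0.0113) without EB+T+E replicate 3. The ratio to control there was 0.73 without that array (adjusted p = 0.0279) and 0.45 ± 0.24 with it (adjusted p = 0.221). The dimmer of its 2 probes gave an EB+T+E to control ratio of 0.66 ± 0.30 at PND 100 and 0.55 ± 0.30 at PND 145. All neighbours in the order of its group means overlapped.

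**Figure D3:**
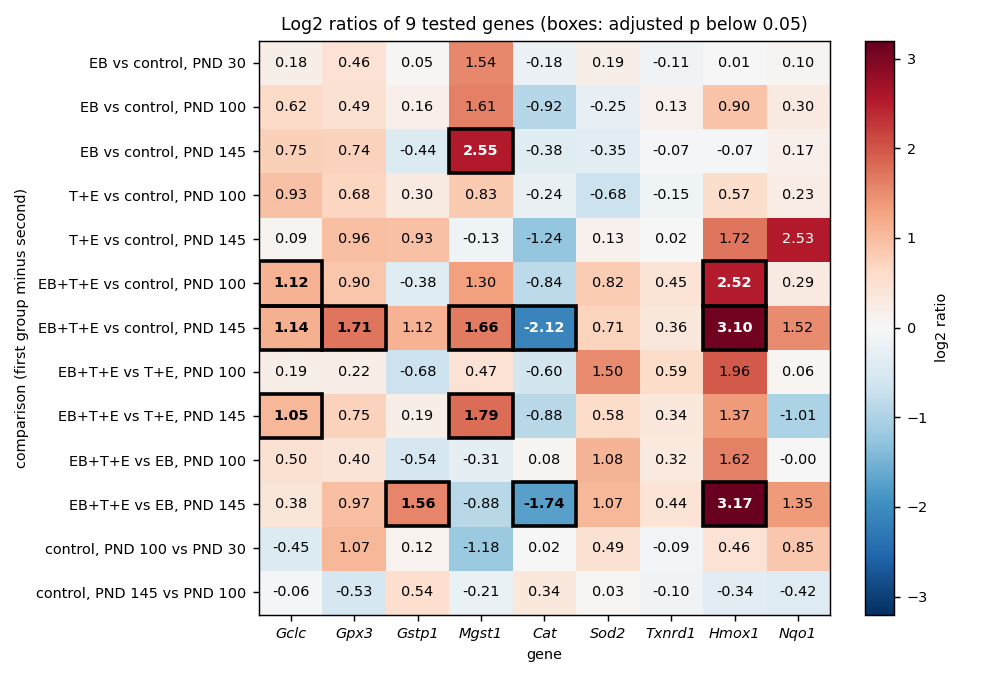
Log2 ratios of the 9 tested genes (columns) in 13 comparisons (rows, first group minus second); red is higher and blue lower in the first group, and boxes mark an adjusted p below 0.05. The 13 boxed values include 5 in EB+T+E against control at PND 145, from -2.12 for Cat to 3.10 for Hmox1.

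The counts of called members are read against the share of all genes called in the same comparison. In EB+T+E against control at PND 145, 5 of 9 members were called, 4 higher and 1 lower, where 35.3% of all 23157 genes were. The median ratio of the 9 was 1.14 and that of all genes -0.24, or 1.38 and -0.13 under quantile scaling. The arrays of the 2 groups did not overlap for any of the 9, and they did not for 52.5% of all genes. At PND 100 the same comparison called 2 of 9 and 12.6% of all genes, with medians of 0.82 and -0.09. Against T+E, EB+T+E called 2 of 9 at PND 145 (21.3% of all genes) and 0 of 9 at PND 100 (3.96%). Against EB, it called 3 of 9 at PND 145 (22.9%) and 0 of 9 at PND 100 (1.7%).

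The single treatments called few genes. EB against control called 0 of 9 members at PND 30 (0.0475% of all genes), 0 of 9 at PND 100 (2.65%) and 1 of 9 at PND 145 (0.566%). T+E against control called none of the 9 at PND 100 (0.181%) or PND 145 (0.389%), with an unadjusted p under the threshold of 0.05 for 1 member (Gclc) and 3 members (Cat, Hmox1 and Nqo1). The controls of PND 100 and PND 30 differed in none of the 9 (2.25% of all genes), where Mgst1 had the largest ratio (-1.18 ± 0.59, adjusted p = 0.379). Between the controls of PND 145 and PND 100 no gene was called by limma (0%). There 573 genes and no member had an unadjusted p under 0.05, and the largest ratio was that of Gstp1 (0.54 ± 0.46). With 3 arrays a group, a count of 0 does not show that levels were equal. Tests of the EB by T+E interaction and of differences between ages called no member. Of all 23157 genes, the interaction called 0 at PND 100 and 178 at PND 145. Differences between ages called 5 (PND 30 to 100) and 0 (PND 100 to 145) for EB, 6 for T+E and 66 for EB+T+E. Among these interaction and age difference tests by limma, the smallest unadjusted p of a member was that of the interaction for Sod2 at PND 100, 1.76 ± 0.63 (adjusted p = 0.418).

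The other genes of the pathway moved in both directions. Of 92 further antioxidant and redox genes tested, 16 rose and 27 fell in EB+T+E against control at PND 145, and 11 rose and 11 fell at PND 100. Of all genes, 14.7% were higher and 20.6% lower at PND 145, and 5.37% and 7.22% at PND 100. The counts at PND 100 were 4 and 4 without EB+T+E replicate 1, 17 and 17 without replicate 3, and 12 and 8 without control replicate 3. At PND 145 they were 14 and 21 without control replicate 2. Neither EB at PND 30 nor T+E at either age called any of the 92 by limma, where 21, 13 and 18 had an unadjusted p under 0.05. EB called 2 higher and 4 lower at PND 100 (0 and 1 without control replicate 3) and 2 lower at PND 145 (0 without control replicate 2). Of all genes, EB called 1.77% higher and 0.872% lower at PND 100, and 0.19% and 0.376% at PND 145. Compared with T+E alone, EB+T+E called 6 higher at PND 100 (0 without replicate 1, and 15 higher and 6 lower without replicate 3) and 9 higher and 16 lower at PND 145. The shares of all genes were 2.63% higher and 1.33% lower at PND 100, and 9.63% and 11.7% at PND 145. Against EB the counts were 2 higher and 1 lower at PND 100 (0 and 0 without replicate 1, 5 and 2 without replicate 3) and 12 higher and 25 lower at PND 145. The shares of all genes against EB were 0.7% higher and 0.998% lower at PND 100, and 10.5% and 12.4% at PND 145. Between controls, 2 rose and 1 fell from PND 30 to PND 100 (0.769% and 1.48% of all genes) and none was called from PND 100 to PND 145.

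Genes that produce oxidants were among the pathway genes with the largest ratios. In the list of 13 superoxide dismutases and oxidant sources, 9 were higher and 1, the copper chaperone Ccs, was lower in EB+T+E than in controls at PND 145. The median ratio was 3.18, or 2.47 with dim genes at the bound that the controls' background allows, and 1.44 under normexp correction. By smallest p, the first 3 were subunits of the phagocyte NADPH oxidase, Ncf4 4.50 ± 0.59 (adjusted p = 6.18e-06), Cybb 3.99 ± 0.53 (adjusted p = 6.81e-06) and Ncf1 4.03 ± 0.54 (adjusted p = 7.92e-06). Duox2, an epithelial hydrogen peroxide-producing oxidase, and its maturation factor Duoxa2, named after their values were seen, were not well above background on any control array and were at least 14-fold and at least 8.97-fold higher (adjusted p = 0.000297 and 0.00113). At PND 100, 6 of the 13 were higher, and 3 without EB+T+E replicate 1. Ncf4 and Cybb were called there, at 3.32 ± 0.59 and 2.72 ± 0.53, and also without that replicate, at 2.64 and 2.20. The NADPH oxidase subunits named here are expressed mainly in neutrophils and macrophages, whose markers were higher on the same arrays, and the part of those cells was not tested. Against T+E at PND 100 the 4 lowest p-values were those of Ncf4 (2.92 ± 0.59), Cybb (2.59 ± 0.53), Ncf1 (2.31 ± 0.54) and Cyba (2.28 ± 0.60), all 4 lost without EB+T+E replicate 1 (adjusted p = 0.125, 0.127, 0.214 and 0.362). Against T+E at PND 145 Ncf1 rose by 3.12 ± 0.54 and Cybb by 2.96 ± 0.53. Against EB at PND 145 the ratios were 3.34 ± 0.51 for Ncf1, 3.52 ± 0.55 for Ncf4 and 3.13 ± 0.49 for Cybb.

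Several other transferases fell where Mgst1 rose. Of 17 further glutathione transferase and related genes, 1 was higher and 8 were lower in EB+T+E than in controls at PND 145, with a median ratio of -1.19. The count lower was 4 under quantile scaling, 5 under normexp correction and 6 without control replicate 2. At PND 100 none was higher and 4 were lower, with a median of -0.61, and 1 was lower without EB+T+E replicate 1 (median -0.26). Without control replicate 3, 3 were lower. Gstz1, which handles tyrosine breakdown products, fell against T+E at PND 145, with a ratio of -1.51 ± 0.26 (adjusted p = 0.000224). In EB+T+E against control at PND 145, 14.7% of all genes were higher and 20.6% lower. Of 10 genes of glutathione synthesis and transport, 4 were lower there and none higher, while Gclc itself was higher. Of 16 thioredoxin and peroxiredoxin genes, 2 rose and 6 fell, or 0 and 4 without control replicate 2. Msra, which repairs oxidised methionine, had a ratio of -1.79 ± 0.28 to control and -1.44 ± 0.26 to EB at PND 145, and Prdx3, the mitochondrial peroxiredoxin, -1.54 ± 0.25 to T+E. Of 5 further glutathione peroxidases, 3 rose and 1 fell at PND 145, and 2 rose at PND 100, among them Gpx1 (1.77 ± 0.29, adjusted p = 0.000821). At PND 100 only 1 of the 5 rose without EB+T+E replicate 1. The list of haem and iron genes had 2 lower of 12 at PND 145 and a median of -0.33, which was 0.25 under quantile scaling. Without control replicate 2, none of the 12 was lower. The medians of the oxidant, transferase, peroxidase, thioredoxin and synthesis lists kept their sign at PND 145 under normexp correction, quantile scaling, the slide block and the authors' deposited table.

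Of the regulators, Keap1 was called and Nfe2l2 was not. Nfe2l2, which encodes NRF2, was not called in any comparison and had a ratio of 0.08 ± 0.16 in EB+T+E against control at PND 145 (adjusted p = 0.743). Its inhibitor Keap1 fell in EB+T+E against control at PND 100 (-0.73 ± 0.24, adjusted p = 0.0485) and PND 145 (-1.02 ± 0.24, adjusted p = 0.00239), and against EB at PND 145 (-0.62 ± 0.23, adjusted p = 0.0488). The call at PND 100 was lost without EB+T+E replicate 1 (-0.58, adjusted p = 0.252) and without control replicate 3 (-0.75, adjusted p = 0.0956). Bach1 was not well above background on any control array at PND 145 and was on all 3 EB+T+E arrays, at least 1.56-fold higher, with an adjusted p of 0.0513. Of 19 genes of NRF2 control and NADPH supply, 1 rose and 5 fell at PND 145, beside 35.3% of all genes called and 20.6% lower, with a median of -0.42, or -0.11 under quantile scaling. Idh1, a cytosolic source of NADPH, was at -1.56 ± 0.30 at PND 100 (adjusted p = 0.00217).

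Single calls in the other comparisons were few. EB at PND 100 lowered Ggct (-1.37 ± 0.29), a glutathione-degrading cyclotransferase, Gsta3 (-2.20 ± 0.57), an alpha-class transferase, and Prdx6 (-1.30 ± 0.34), and raised Ncf1 (2.36 ± 0.54). Of these, Ggct, Gsta3 and Ncf1 were lost without control replicate 3 (adjusted p = 0.0621, 0.17 and 0.0764). EB at PND 145 lowered Prdx6 again (-1.47 ± 0.32, adjusted p = 0.0287) and the ferritin light chain Ftl1 (-0.57 ± 0.13), and both were lost without control replicate 2 (adjusted p = 0.096 and 0.251). EB+T+E against EB at PND 100 raised the transferrin receptor Tfrc (1.80 ± 0.35) and biliverdin reductase Blvra (1.01 ± 0.24) and lowered the iron exporter Slc40a1 (-2.09 ± 0.54). All 3 were lost without EB+T+E replicate 1 (adjusted p = 0.0695, 0.197 and 0.132), and Slc40a1 also without replicate 3 (0.127). Between PND 30 and PND 100 in controls, Prdx4 fell (-1.52 ± 0.24) and Ftl1 (0.62 ± 0.13) and Chac1 (1.09 ± 0.24), another glutathione-degrading enzyme, rose.

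**Figure D4:**
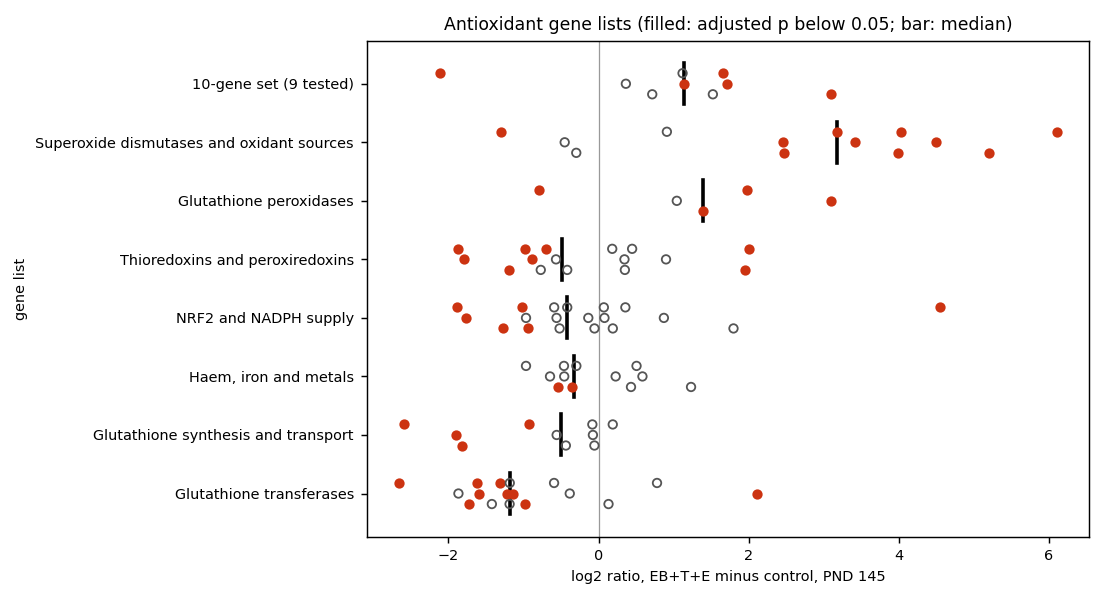
Log2 ratio in EB+T+E minus control at PND 145 (x axis) of each gene in the 10-gene set and in 7 pathway lists (y axis); filled points have an adjusted p below 0.05, open points do not, and vertical bars are medians. The oxidant source list has a median of 3.18 and the transferase list of -1.19.

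Arrays of different groups were mixed on slides 1 to 4, and slide 5 held 1 EB array. Within the slides that held both EB+T+E and control arrays of PND 145, the differences were 2.88 to 3.83 for Hmox1 and -2.44 to -2.003 for Cat over 2 slides, and for Gclc at PND 100 they were 0.21 to 0.99. Since the groups of all 13 called pairs do not overlap, the sign of such a difference is fixed and only its size is given. No label says which arrays share a litter, so the tests measure only how far these samples spread.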

How the data were processed

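Total RNA of 33 prostates was hybridised to 1-colour Agilent arrays (design 074036). Per the file headers, the deposited intensities (processed signal) were made with Feature Extraction 12.0.0.7, protocol GE1_1200_Jun14, which subtracts background and detrends the signal, with probe positions on build rn4. The authors' deposited value table holds linear intensities at a shared 75th percentile (619.357 to 619.517), which follow the scanner values (log-scale correlation of at least 0.9999825), so its scale between arrays is known and its further steps are not. The well-above-background, saturation and outlier flags are as deposited, per the file headers.

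Control spots and outlier spots were left out and spots of a probe were averaged. Where all spots of a probe on an array were flagged as outliers (354 probe values), the value was kept. Each log2 signal was set relative to the 75th percentile of its array. The filter retained 30548 probes well above background on at least 3 arrays, and each of 23157 genes was read from its brightest one. A member is a probe whose gene name equals its symbol. One model of 10 group means was fitted over all arrays with limma 3.58.1 in R 4.3.3 (trend, robust), with Benjamini-Hochberg adjustment over 23157 genes and a threshold of 0.05. The procedure was tested on simulated data. Figures were drawn with matplotlib 3.10.9 in Python 3.11.15. Gene names were brought up to date through RefSeq accessions and symbols, and promoter windows are those of RefSeq on GRCr8.

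The members, lists and tests were chosen with earlier results of these data known. Named were every member, the pathway genes called with the smallest p (at most 4 per comparison), Nfe2l2, Keap1 and Bach1, and the 3 profiles nearest to Hmox1. Array values are given for each called member and, where none was called, for the member with the largest ratio. Alternatives were normexp correction (offset 50), quantile scaling, no filter, a filter of 17 arrays, slide and replicate number as blocks, a fit of only the groups compared, the deposited table, the mean of all probes, and leaving out each array. Tests of effect differences, list medians under other scalings, bounds for dim pathway genes, pathway counts without 4 arrays that stand apart by their markers, and counts of markers above background were chosen after seeing the data.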

Additional observations from a re-analysis of the deposited data

Results flagged for a closer look

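Mgst1 stood at 2.975 in replicate 4 of the EB group at PND 30, far above the other 3 arrays of that group. It was 1 of 30 group tests for a sample far from the others, of which chance marks about 1 in 20. Sod2 differed between EB and control by 0.1864 at PND 30 and by -0.3533 at PND 145, so the mean effects pointed in opposite directions, and this difference between PND 30 and PND 145 was not tested. Gclm, left out of the tests, gave a signal well above background in EB+T+E at PND 145 on replicate 1 (-5.701) and replicate 2 (-7.319), and on no control array.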

How the results depend on the processing

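For the 13 called pairs of gene and comparison, 199 refits under other settings kept 148 calls, lost 51 and reversed none. Cat, Gpx3 and Hmox1 in EB+T+E against control at PND 145, and Cat and Hmox1 against EB, kept their call throughout. The cause of the changes below was not tested.

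Counts of genes called moved as follows. EB at PND 30 (11 in the reported fit) gave 76 with normexp, 6 with a filter of 17 arrays, 20 with the mean of all probes and 17 with only the groups compared. EB at PND 100 (613) gave 74 with normexp, 382 with quantile scaling, 259 with no filter, 1575 with slide as a block, 361 with the replicate block and, with limma on only the groups compared, 0 (4088 at an unadjusted p under 0.05). EB at PND 145 (131) gave 30 with normexp, 85 with no filter, 32 with the slide block, 73 with the replicate block and 0 (4086 unadjusted) with only the groups compared. T+E at PND 100 (42) gave 24 with normexp, 18 with the filter of 17 arrays, 81 with the slide block and 247 with only the groups compared. T+E at PND 145 (90) gave 152 with quantile scaling, 48 with the filter of 17 arrays, 136 with the authors' deposited table and 23 with only the groups compared. At PND 100, normexp gave 1757 when EB+T+E was set against control (2914), 392 against T+E (918) and 179 against EB (393), only the groups compared gave 0 in each (3624, 2138 and 977 unadjusted), and the slide block gave 1548 against T+E. With only the groups compared, EB+T+E against EB at PND 145 (5300) gave 3505 and the controls of PND 100 against PND 30 (520) gave 2221.

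Of the 9 members, EB at PND 145 called 1, and 0 with normexp, no filter, the slide block, the replicate block or only the groups compared. EB+T+E against control at PND 100 called 2, and 1 with normexp, no filter or the slide block and 0 with only the groups compared. At PND 145 it called 5, and 3 with normexp and 8 with only the groups compared. Against T+E it called 0 at PND 100, and 2 with the slide block. At PND 145 it called 2, and 0 with normexp or no filter and 1 with the replicate block or only the groups compared.

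Leaving out 1 array gave 7 to 522 genes for EB at PND 30, 8 to 2683 at PND 100 and 6 to 220 at PND 145. It gave 0 to 31 for T+E at PND 100 and 53 to 176 at PND 145. For EB+T+E it gave 689 to 5691 and 5149 to 8461 against control at PND 100 and 145, 7 to 5490 and 2324 to 5658 against T+E, and 24 to 1170 and 2755 to 5998 against EB. Between controls it gave 289 to 435 and 0 to 74. Members called ranged from 0 to 1 for EB at PND 145, 0 to 3 and 3 to 5 for EB+T+E over control at PND 100 and 145, 0 to 3 against T+E at each age, and 0 to 2 and 2 to 3 against EB.

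Same-numbered samples had correlations of -0.444 to 0.456 and in no comparison were all pairs over 0.1. No pairing by number was seen, which with so few arrays does not exclude one, and the replicate block is given only here. The 3 or 4 arrays per group limit the precision, and signal over background limits Gclm.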
